A study of Mus musculus with 36 samples.

Results

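The 36 genes described here carry the G1/S transition and DNA replication, and were named one by one: 6 subunits of the MCM helicase, 5 of its partners, 4 origin licensing genes, 5 G1/S control genes, 4 genes of the sliding clamp, its loader and RPA, 4 of polymerases and primase, 2 of Okazaki fragment joining, 4 of nucleotide supply and 2 of chromatin assembly. All 36 were found among the 32285 mouse genes of the count table, and all 36 passed the filter on low counts in both lines. The RNA came from cultures of AT-3, a line begun from a mammary tumour of an MMTV-PyMT mouse, and of E0771, begun from a mouse mammary adenocarcinoma. For 24 h the cells were given the vehicle DMSO, NS11021 (10 µM), BMS204352 (10 µM), KCl (40 mM), or KCl together with 1 of the compounds. Each line and treatment had 3 libraries, which makes 12 groups and 36 libraries. By its title, the series concerns expression driven by the coactivator MRTFA with SRF, the stiffness of cancer cells, and their calcium and potassium. NS11021 opens the BK potassium channel, BMS204352 opens BK and KCNQ potassium channels, and raised KCl depolarizes cells. No control for the osmolarity or chloride of KCl was among the samples, so those and potassium cannot be told apart.

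Cells copy their genome once per division. In G1, ORC, Cdc6 and Cdt1 load the MCM ring onto origins. Cyclin E with its kinase, switched on with the help of the phosphatase Cdc25a, then starts S phase, and Cdc45 and the GINS complex turn the loaded ring into a moving helicase. Transcription factors of the E2F family switch on most of these genes together at G1/S, and RB family proteins hold them down in resting cells. In tumour cells their summed RNA is commonly read as a measure of how many cells are cycling.

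Because these genes are known for shared E2F control, their promoters are shown first. RefSeq promoters (GRCm38.p6, 250 bases before to 50 after the gene start) were matched for 31 of the 36 genes. The E2F letters searched were TTTCCCGC, TTTGGCGC, TTTCGCGC and TTTGCCGC on both strands, with overlapping matches allowed. They were present in 13 of the 31 promoters (41.9%), against 4.06% of the promoters of genes tested in E0771 and 2.32% of all promoters. CCAAT, on either strand, was present in 20 of the 31 (64.5%), against 39.2% of tested and 37.9% of all promoters. The CHR letters TTTGAA, which mark many G2/M promoters, were present in 4 of the 31 (12.9%), against 12.1% of tested genes. The 160 bases before the RefSeq start are printed 5′ to 3′ for 6 genes, with E2F and CCAAT letters in capitals. In 1 of the 31 promoters E2F and CCAAT letters overlapped. Cdc6, Mcm5, Mcm6, Cdc25a and Mcm10 were picked from the genes whose RNA both compounds lowered in E0771, and Pola1 because it was called with neither. Of the 31 promoters, 11 were of genes called lower in all 4 E0771 comparisons with a compound, with and without KCl, and 7 of genes called lower in none. E2F letters were present in 6 of these 11 and 3 of these 7, and CCAAT in 9 and 2. A difference between the 2 sets was not tested.
Cdc6: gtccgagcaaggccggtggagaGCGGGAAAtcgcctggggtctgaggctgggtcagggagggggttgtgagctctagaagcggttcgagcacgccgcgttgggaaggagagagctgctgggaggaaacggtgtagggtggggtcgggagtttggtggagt
Mcm5: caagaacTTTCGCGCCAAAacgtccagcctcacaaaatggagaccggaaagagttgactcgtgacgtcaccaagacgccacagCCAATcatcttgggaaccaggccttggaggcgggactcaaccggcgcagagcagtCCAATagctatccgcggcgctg
Mcm6: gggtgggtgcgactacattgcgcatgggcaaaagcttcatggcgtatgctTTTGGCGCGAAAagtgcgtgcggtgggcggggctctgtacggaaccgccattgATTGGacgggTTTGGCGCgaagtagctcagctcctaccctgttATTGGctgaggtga
Cdc25a: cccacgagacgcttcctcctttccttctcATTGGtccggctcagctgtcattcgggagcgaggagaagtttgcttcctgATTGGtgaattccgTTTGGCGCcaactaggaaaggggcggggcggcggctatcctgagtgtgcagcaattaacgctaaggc
Mcm10: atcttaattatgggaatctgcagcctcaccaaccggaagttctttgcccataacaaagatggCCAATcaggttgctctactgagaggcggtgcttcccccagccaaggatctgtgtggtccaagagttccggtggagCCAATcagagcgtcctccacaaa
Pola1: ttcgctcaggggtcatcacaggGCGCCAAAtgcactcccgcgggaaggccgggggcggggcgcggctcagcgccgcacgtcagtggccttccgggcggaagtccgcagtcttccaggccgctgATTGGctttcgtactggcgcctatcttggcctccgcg
The windows are chr11:98907991-98908150 (plus strand), chr8:75109349-75109508 (plus), chr1:128359706-128359865 (minus), chr9:109875419-109875578 (plus), chr2:5012792-5012951 (minus) and chrX:93632156-93632315 (minus). The E2F letters of Cdc6 and Pola1 both began at position −138 from the gene start, and those of Cdc25a at −67. In Mcm5 and in the upstream pair of Mcm6, a forward and a reverse match overlapped. Mcm10 held no E2F letters in this window and 2 CCAAT matches. Pola1, which was not called with the compounds, held both kinds of letters.

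Each AT-3 library held between 38.5 and 52.6 M counts, and each E0771 library between 31.2 and 47.9 M. The spread between replicates, as a coefficient of variation from the fit, was 0.116 in AT-3 and 0.0707 in E0771, so the median SE of a log2 fold change of these genes was 0.10 and 0.06. Within AT-3 the spread was uneven. The median coefficient of variation of the 36 genes was 18.3% in BMS204352 and 10.2% in KCl+BMS204352. It was 3.83 to 5.89% in the other AT-3 groups and 2.65 to 7.04% in the E0771 groups. All AT-3 comparisons share 1 fit, so its SE includes the wider groups. The labels do not say that replicates came from separate cultures, so p-values measure the spread between these libraries, which may be technical. In AT-3, replicate 3 of BMS204352 lay at 65.9 on the first principal component, against 17.2 and 22.1 for the other replicates, and replicate 3 of KCl+BMS204352 at 30.1. In E0771, replicate 3 of BMS204352 lay at −30.2 on the third component. Results for BMS204352 are therefore also given without the replicate 3 libraries of BMS204352 and KCl+BMS204352, 4 libraries in all. Markers of mammary epithelium had a median of at least 1 CPM (counts of a gene per 1000000 counts of the library) for all but 2 of 8 genes in AT-3, whereas 7 of 8 were under 1 CPM in E0771, whose only one above it was Krt8. Leukocyte markers Ptprc, Cd3e and Itgam were at or near 0 in both lines.

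In DMSO the 36 genes spanned a wide range of levels, and their order differed between the lines. Compared per kilobase of exon, Rrm2, a subunit of the enzyme that makes deoxynucleotides, was first in both lines, at 111 ± 8.32 CPM per kb (SD, n = 3) in AT-3 and 95.4 ± 3.39 in E0771. Pcna, the sliding clamp, came second in AT-3 at 109 ± 6.92 CPM per kb, and Mcm5 second in E0771 at 91.4 ± 2.62. Orc1 and the flap nuclease Fen1 were lowest in both lines, with Fen1 at 2.98 ± 0.551 and 2.64 ± 0.326 CPM per kb. The ranges of the 3 libraries overlapped for 25 of the 35 neighbouring pairs in this order in AT-3 and for 16 of 35 in E0771, so most neighbours in AT-3 did not differ beyond their spread. The greatest shifts in rank were those of Mcm10, from place 28 in AT-3 to place 17 in E0771, and of Cdt1, from place 13 to place 4.

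**Figure D1:**
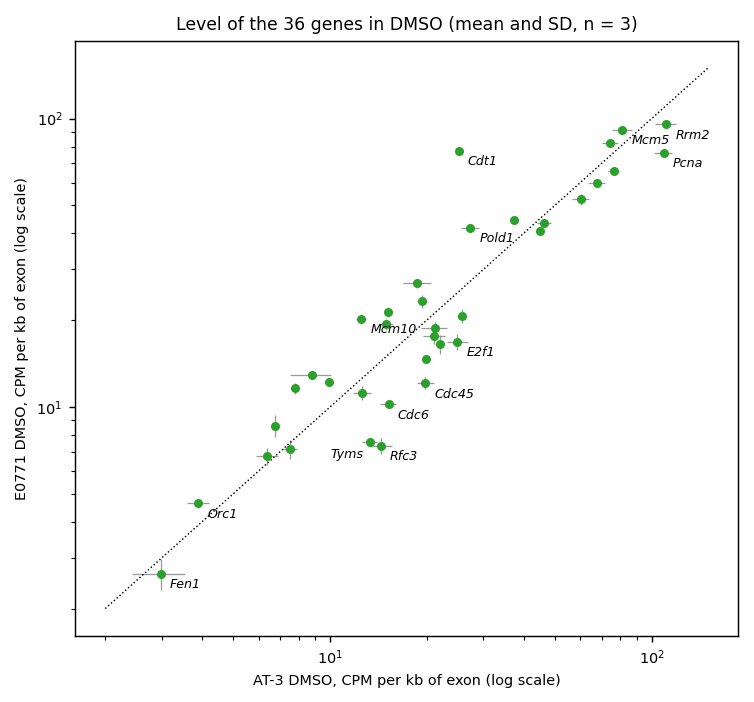
Level of each of the 36 genes in DMSO, in AT-3 (x axis) and E0771 (y axis), as CPM per kb of exon on log axes, with points at the mean, bars for the SD of 3 libraries and the dotted line for equal levels. Most genes lie near the line; Cdt1 lies well above it, and Rfc3 and Tyms below it.

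With edgeR's quasi-likelihood test over all 36 libraries, 12 genes were higher and 13 lower in E0771 than in AT-3 in DMSO at a Benjamini-Hochberg adjusted p below 0.05, the threshold for a call throughout. Over all 15969 genes tested, 34.1% were called higher and 40.4% lower, so these shares (33.3% and 36.1%) were near those of all genes. In bulk RNA, fewer cells in a phase and less RNA per cell cannot be told apart, here and in all results that follow. Cdt1, the licensing factor destroyed when S phase begins, stood at 78.9, 80.2 and 77.6 CPM in the AT-3 libraries and at 247, 242 and 239 in E0771, a log2 fold change of 1.62 ± 0.06 (adjusted p = 3.62e-22). It was the only one of the 36 that differed at least 2-fold, and 6 differed at least 1.5-fold. Pold1, the catalytic subunit of polymerase delta, stood at 134, 123 and 140 CPM in AT-3 and 203, 208 and 200 in E0771, a change of 0.62 ± 0.06 (adjusted p = 4.43e-11). Mcm10, which helps start the helicase, stood at 97.7, 91.6 and 98 CPM in AT-3 and 154, 152 and 160 in E0771, a change of 0.70 ± 0.09 (adjusted p = 7.73e-08). Of these genes no AT-3 library reached the lowest E0771 library. E2f2, an activator E2F, stood at 38.4, 36.7 and 38.6 CPM in AT-3 and 54.5, 59.1 and 55.8 in E0771, a change of 0.57 ± 0.10 (adjusted p = 7.46e-06). The origin subunit gene Orc6 stood at 51.1, 41.8 and 45.4 and 65.6, 64.1 and 68.4 CPM, a change of 0.52 ± 0.09 (adjusted p = 2.07e-06). Chaf1a, of chromatin assembly, stood at 138, 124 and 135 and 166, 169 and 180 CPM, a change of 0.38 ± 0.07 (adjusted p = 1.38e-05). These also lay apart.

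Other genes went the opposite way at baseline. Rfc3, a subunit of the clamp loader, stood at 57.1, 49.5 and 49.2 CPM in AT-3 and 27.6, 24.6 and 27.2 in E0771, a log2 fold change of −0.97 ± 0.10 (adjusted p = 6.06e-11). Tyms, thymidylate synthase, stood at 85.8, 80 and 77.4 against 45.9, 45.6 and 47.1 CPM, a change of −0.81 ± 0.08 (adjusted p = 1.27e-10). Both sets of libraries lay clear of each other. Cdc45, which rides with the helicase, stood at 73.1, 64.7 and 70 CPM in AT-3 and 41.5, 44.9 and 41 in E0771, a change of −0.71 ± 0.08 (adjusted p = 7.09e-10). E2f1, the founding activator E2F, stood at 77.1, 73.3 and 84.9 and 49.2, 55.7 and 53.7 CPM, a change of −0.57 ± 0.07 (adjusted p = 2.55e-09). In neither gene did the lines overlap. Pcna stood at 281, 249 and 256 CPM in AT-3 and 180, 180 and 187 in E0771, a change of −0.52 ± 0.07 (adjusted p = 3.31e-08). The loader Cdc6 stood at 83.6, 74.6 and 80.7 and 51.7, 54.6 and 53.9 CPM, a change of −0.58 ± 0.11 (adjusted p = 1.19e-05). Both were lower in every E0771 library than in every AT-3 library. Libraries of the lines did not overlap for 15 genes that were higher in E0771 (41.7%, against 35.5% of all genes) and 17 that were lower (47.2%, against 41.6%).

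In E0771, both channel openers lowered these genes, and no gene of the 36 was called higher when all libraries were fitted. With NS11021, 20 of 36 were lower (55.6%), while 13.5% of all 13357 genes tested were lower and 12.8% higher; their median log2 fold change was −0.222, while that of all genes was near 0 at 0.0019. With BMS204352, 20 of 36 were lower against 11.3% of all genes lower and 11.3% higher, with a median of −0.211. Against KCl alone, KCl+NS11021 lowered 22 of 36 (61.1%), against 7.66% of all genes lower and 9.59% higher, with a median of −0.212. KCl+BMS204352 lowered 20 of 36 against 10.1% of all genes lower and 9.85% higher, with a median of −0.201. Without replicate 2 of E0771 KCl, 14 genes were called with KCl+NS11021, and without replicate 3 of KCl+BMS204352, 12 were called with that treatment. Of all genes, 1580 of 13689 and 1759 of 13683 were called in these fits. The called decreases were small, from 0.11 to 0.67 on the log2 scale over these comparisons. Throughout, the shares of all genes were not matched to the 36 in level, and include genes with fewer counts. With only genes at 1 CPM in 3 libraries kept, 1885 of 11365 genes were lower with NS11021, and 21 of the 36. Libraries of the groups compared did not overlap, with the treated ones lower, for 27 genes with NS11021 (75.0%, against 21.6% of all genes), 24 with BMS204352 (66.7%, against 18.6%), 28 with KCl+NS11021 (77.8%, against 18.2%) and 25 with KCl+BMS204352 (69.4%, against 17.1%). NS11021 and BMS204352 shared the DMSO libraries as their control, and the KCl combinations shared the KCl libraries, so likeness within either pair is not a result, and differences between the compounds were not tested.

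**Figure D2:**
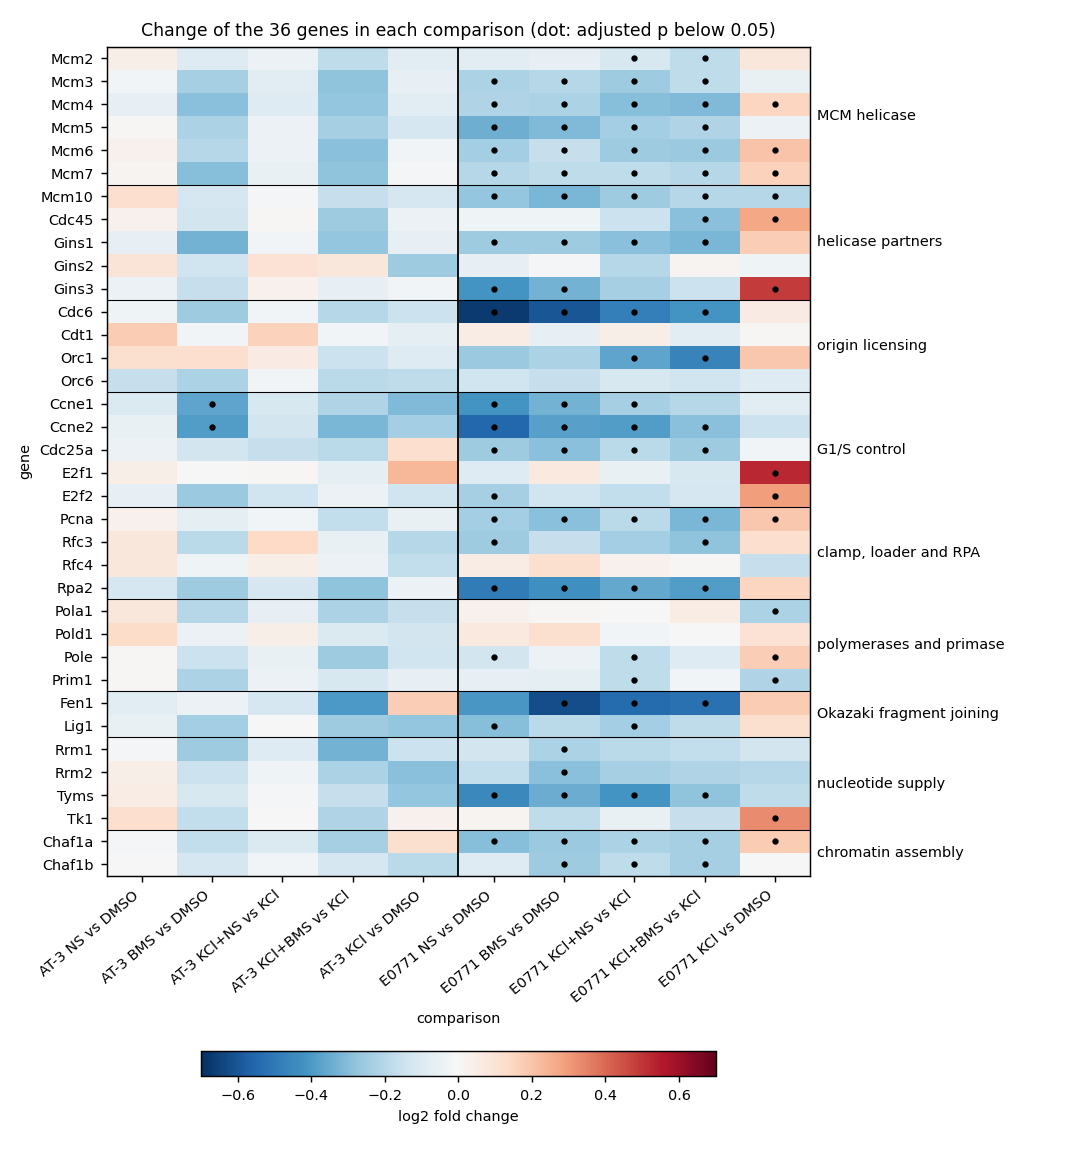
Log2 fold change of the 36 genes (rows, grouped by role) in 5 comparisons per line (columns), on a colour scale from blue (lower) to red (higher), with a dot where the adjusted p was below 0.05. The E0771 columns for the compounds hold blue cells with dots in every role, fewest among the polymerases and primase, and the AT-3 columns hold 2 dots, for Ccne1 and Ccne2 with BMS204352.

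Among the licensing genes, Cdc6 had the smallest adjusted p of the 36 with NS11021, with BMS204352 and with KCl+NS11021, and tied with Pcna with KCl+BMS204352. It stood at 51.7, 54.6 and 53.9 CPM in DMSO, 32.9, 31.4 and 36.3 in NS11021 and 36.1, 35.7 and 33.9 in BMS204352. No treated library reached the lowest DMSO library. Cdc6 RNA fell by 37.2% with NS11021, a log2 fold change of −0.67 ± 0.06 (adjusted p = 7.57e-09), and by 33.8% with BMS204352, a change of −0.60 ± 0.06 (adjusted p = 1.32e-07). In raised potassium it stood at 54.9, 54.4 and 57.1 CPM with KCl alone, 37.7, 40.3 and 41.4 with NS11021 added and 42.8, 42.9 and 39.7 with BMS204352 added. The changes were −0.48 ± 0.06 (adjusted p = 3.95e-06) and −0.42 ± 0.06 (adjusted p = 1.46e-05). Its partner in licensing, Cdt1, was not called, with log2 fold changes from −0.08 to 0.05 and, for NS11021, an approximate 95% interval of −0.03 to 0.14. Orc1, the largest subunit of the origin recognition complex, was called lower against KCl only, at −0.37 ± 0.11 (adjusted p = 0.0163) with NS11021 and −0.47 ± 0.11 (adjusted p = 0.00205) with BMS204352; against DMSO its changes were −0.26 ± 0.11 (adjusted p = 0.0795) and −0.22 ± 0.11 (adjusted p = 0.149). The call with KCl+NS11021 was lost in 2 of 6 fits that left out 1 library. Of its exon bases, 10.8% overlap a gene on the opposite strand. Orc6 had changes from −0.16 to −0.11 and no call.

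Of the G1/S control genes, the cyclin E genes and Cdc25a were lowered by the compounds. Ccne2, cyclin E2, stood at 41.2, 37 and 38.7 CPM in DMSO, 28.3, 22.9 and 28.6 in NS11021 and 29.3, 30.8 and 29.2 in BMS204352. All treated libraries were below all DMSO libraries. The log2 fold changes were −0.55 ± 0.07 (adjusted p = 2.2e-06) and −0.38 ± 0.07 (adjusted p = 0.000358). With KCl it stood at 35.4, 33.6 and 35.2 CPM, with KCl+NS11021 at 26.3, 27.4 and 25.8 and with KCl+BMS204352 at 29.7, 27.7 and 28.5, changes of −0.39 ± 0.08 (adjusted p = 0.000528) and −0.29 ± 0.07 (adjusted p = 0.00538). Of its exon bases, 17.4% overlap Ints8 on the opposite strand, and the counting strand is not given in the sources used here. Ccne1, cyclin E1, was lower at −0.42 ± 0.08 (adjusted p = 0.00011) with NS11021, −0.33 ± 0.08 (adjusted p = 0.00193) with BMS204352 and −0.23 ± 0.08 (adjusted p = 0.0316) with KCl+NS11021; its change of −0.20 ± 0.08 (adjusted p = 0.0611) with KCl+BMS204352 was not called. Cdc25a, the phosphatase that frees cyclin-dependent kinases, was called lower in each comparison and fell by 0.19 to 0.29 on the log2 scale. With KCl+NS11021 the calls of Ccne1 and Cdc25a were each lost in 5 of 6 fits that left out 1 library. The call of Cdc25a was also lost without replicate 3 of DMSO for NS11021 and without replicate 3 of KCl+BMS204352 for that treatment. E2f1 itself was not called with either compound, with changes from −0.11 to 0.07. E2f2 was called once, with NS11021, at −0.23 ± 0.07 (adjusted p = 0.00985), and the call was lost in 2 of 6 such fits.

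Nearly all subunits of the MCM helicase were lowered. Of the 6, 5 were called lower with NS11021, 5 with BMS204352, and 6 with either compound in KCl. Mcm5 stood at 370, 353 and 372 CPM in DMSO, 293, 283 and 287 in NS11021 and 305, 309 and 264 in BMS204352. No treated library overlapped the DMSO libraries, though replicate 3 of BMS204352 was the lowest of all. The log2 fold changes were −0.34 ± 0.05 (adjusted p = 8.23e-06) and −0.31 ± 0.05 (adjusted p = 4.73e-05). Mcm4 stood at 210, 208 and 203 CPM in KCl, 169, 166 and 171 in KCl+NS11021 and 178, 171 and 158 in KCl+BMS204352, with changes of −0.30 ± 0.05 (adjusted p = 0.00012) and −0.31 ± 0.05 (adjusted p = 4.7e-05). Mcm6 stood at 350, 351 and 352 CPM in KCl, at 288, 298 and 295 in KCl+NS11021 and at 307, 303 and 279 in KCl+BMS204352, again with no overlap. Its changes were −0.25 ± 0.04 (adjusted p = 0.000153) and −0.26 ± 0.04 (adjusted p = 9.14e-05). Mcm3, another subunit, went from 302, 300 and 287 CPM in KCl to 239, 249 and 259 in KCl+NS11021, a change of −0.25 ± 0.05 (adjusted p = 0.000733). Mcm2 was not called against DMSO, with −0.08 ± 0.04 (adjusted p = 0.16) for NS11021 and −0.06 ± 0.04 (adjusted p = 0.256) for BMS204352, and was lower in KCl at −0.11 ± 0.04 (adjusted p = 0.0447) and −0.18 ± 0.04 (adjusted p = 0.0013). Its call with KCl+NS11021 was lost with no filter on low counts and in 5 of 6 fits that left out 1 library, so the count of 6 there includes the calls of Mcm2 and Mcm7, which most of these fits lose. The call of Mcm6 with BMS204352 was lost without replicate 3 of that compound, and that of Mcm3 with KCl+BMS204352 without replicate 3 of that treatment. Mcm7 was called lower in each comparison and fell by 0.18 to 0.20, but the call was lost in 4 of 6 fits that left out 1 library with NS11021, in 5 with BMS204352, in all 6 with KCl+NS11021 and in 4 with KCl+BMS204352. Its call with BMS204352 was also lost without the 4 libraries. Of the exon bases of Mcm7, 3.9% overlap a gene on the same strand and 8.7% one on the opposite strand.

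Among the partners that activate the helicase, Mcm10 stood at 154, 152 and 160 CPM in DMSO, 134, 121 and 131 in NS11021 and 129, 129 and 115 in BMS204352, with all treated libraries lower. The log2 fold changes were −0.27 ± 0.06 (adjusted p = 0.000388) and −0.32 ± 0.06 (adjusted p = 0.000114). Gins1, of the 4-part GINS ring, was called lower in each comparison and fell by 0.25 to 0.32. Its call with BMS204352 was lost without the 4 libraries, with only the libraries compared, and without replicate 1 of DMSO or replicate 3 of BMS204352; that with NS11021 was lost without replicate 1 of DMSO. Gins3 was lower against DMSO, at −0.42 ± 0.09 (adjusted p = 0.00092) and −0.33 ± 0.09 (adjusted p = 0.00828), the latter not without replicate 2 of DMSO, and was not called against KCl. Gins2, of whose exon bases 67.3% overlap Gse1 on the opposite strand, was never called. Cdc45 was called in KCl+BMS204352 alone: it stood at 48.2, 52.7 and 51.4 CPM in KCl and 43.7, 42.2 and 39.6 in KCl+BMS204352, a change of −0.29 ± 0.06 (adjusted p = 0.00112). With BMS204352 against DMSO its change was −0.03 ± 0.06 (adjusted p = 0.817). The call of Mcm10 with KCl+BMS204352 was lost without replicate 3 of that treatment.

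Of the genes of the clamp and single-strand binding, Rpa2, a subunit of the protein that coats single-stranded DNA, stood at 57.8, 53.3 and 58.1 CPM in DMSO, 41.8, 38.1 and 40.2 in NS11021 and 46.5, 44.5 and 34.2 in BMS204352. Every treated library was below every DMSO library. The log2 fold changes were −0.49 ± 0.08 (adjusted p = 5.13e-05) and −0.43 ± 0.08 (adjusted p = 0.000365), and in KCl −0.36 ± 0.08 (adjusted p = 0.00249) and −0.39 ± 0.08 (adjusted p = 0.000964). In KCl+BMS204352 Rpa2 stood at 51.2, 48.3 and 44.4 CPM, against 59.8, 65.3 and 61.9 in KCl. Pcna stood at 180, 180 and 187 CPM in DMSO, 156, 155 and 153 in NS11021 and 152, 153 and 139 in BMS204352. The groups did not overlap, and the changes were −0.24 ± 0.05 (adjusted p = 0.00042) and −0.29 ± 0.05 (adjusted p = 5.45e-05). In KCl it fell from 206, 215 and 200 to 175, 172 and 153 CPM with BMS204352 added, a change of −0.32 ± 0.05 (adjusted p = 1.46e-05). Of the clamp loader genes, Rfc3 was called lower with NS11021 (−0.25 ± 0.09) and with KCl+BMS204352 (−0.28 ± 0.09), the latter with overlapping libraries, and Rfc4 was not called, with changes from 0.01 to 0.11. The Rfc3 call with NS11021 was lost in 4 of 6 fits that left out 1 library, and that with KCl+BMS204352 in 3 of 6 and without the 4 libraries.

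The genes of polymerases and primase had few calls. Pola1, the catalytic subunit of polymerase alpha, stood at 105, 111 and 108 CPM in DMSO, 109, 110 and 110 in NS11021 and 110, 105 and 110 in BMS204352. These groups overlapped, and the changes of 0.03 ± 0.05 (adjusted p = 0.739) and 0.01 ± 0.05 (adjusted p = 0.883) had approximate 95% intervals of −0.07 to 0.12 and −0.08 to 0.10, neither of which reaches the size of the change in Cdc6. Pold1 stood at 203, 208 and 200 CPM in DMSO, 213, 216 and 210 in NS11021 and 220, 222 and 215 in BMS204352. Its treated libraries were all above DMSO, by 0.07 ± 0.04 (adjusted p = 0.289) and 0.11 ± 0.04 (adjusted p = 0.0655), neither of them a call. Pole, of polymerase epsilon, was lower with NS11021 at −0.13 ± 0.04 (adjusted p = 0.0325) and with KCl+NS11021 at −0.18 ± 0.04 (adjusted p = 0.00539). The primase gene Prim1 was called once, with KCl+NS11021, at −0.18 ± 0.06 (adjusted p = 0.0477). That call was lost in 5 of 6 fits that left out 1 library, and the call of Pole with NS11021 was lost with no filter and in 4 of 6.

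The genes that join and supply DNA were lowered in part. Tyms stood at 45.9, 45.6 and 47.1 CPM in DMSO, 36.3, 31.1 and 34 in NS11021 and 39.4, 34.6 and 34.2 in BMS204352. No treated library reached the DMSO libraries, and the changes were −0.45 ± 0.08 (adjusted p = 6.4e-05) and −0.35 ± 0.08 (adjusted p = 0.00138). In KCl it stood at 38.9, 41 and 41.9 CPM, and in KCl+NS11021 at 29.6, 30.3 and 31.2, a change of −0.42 ± 0.08 (adjusted p = 0.000413). Its call with KCl+BMS204352 was lost without the 4 libraries and in 2 of 6 fits that left out 1 library. The ribonucleotide reductase genes Rrm1 and Rrm2 were called with BMS204352 alone, at −0.22 ± 0.07 (adjusted p = 0.0346) and −0.29 ± 0.08 (adjusted p = 0.017); their replicate 3 libraries stood at 327 and 182 CPM, against at least 405 and 231 in the other BMS204352 libraries. Both calls were lost with only the libraries compared, and in 4 and 2 of 6 fits that left out 1 library. The salvage kinase Tk1 was not called, with changes from −0.18 to 0.02. DNA ligase 1, Lig1, was lower with NS11021 (−0.30 ± 0.07) and KCl+NS11021 (−0.24 ± 0.07), the latter call lost in 3 of 6 such fits. Fen1 had the largest change of the joining genes, −0.62 ± 0.16 (adjusted p = 0.00568) with BMS204352, at a low level of 4.07 to 4.21 CPM against 5.68 to 7.24 in DMSO. Because 84.2% of the exon bases of Fen1 overlap genes on the opposite strand, its value is uncertain. Its calls with KCl+NS11021 and KCl+BMS204352 were each lost in 4 of 6 fits that left out 1 library, and the latter also without the 4 libraries.

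The chromatin assembly factor genes, which place histones behind the fork, were lower as well. Chaf1a stood at 166, 169 and 180 CPM in DMSO, 141, 136 and 142 in NS11021 and 146, 154 and 130 in BMS204352, without overlap. Its changes were −0.30 ± 0.05 (adjusted p = 4.69e-05) and −0.26 ± 0.05 (adjusted p = 0.000383). Of its exon bases, 52.5% overlap Ubxn6 on the opposite strand. Chaf1b was called with BMS204352 at −0.25 ± 0.06 (adjusted p = 0.00247) and with both combinations in KCl, while its change with NS11021 was −0.09 ± 0.06 (adjusted p = 0.254). Its call with KCl+NS11021 was lost in all 6 fits that left out 1 library, and that with KCl+BMS204352 without replicate 3 of that treatment.

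**Figure D3:**
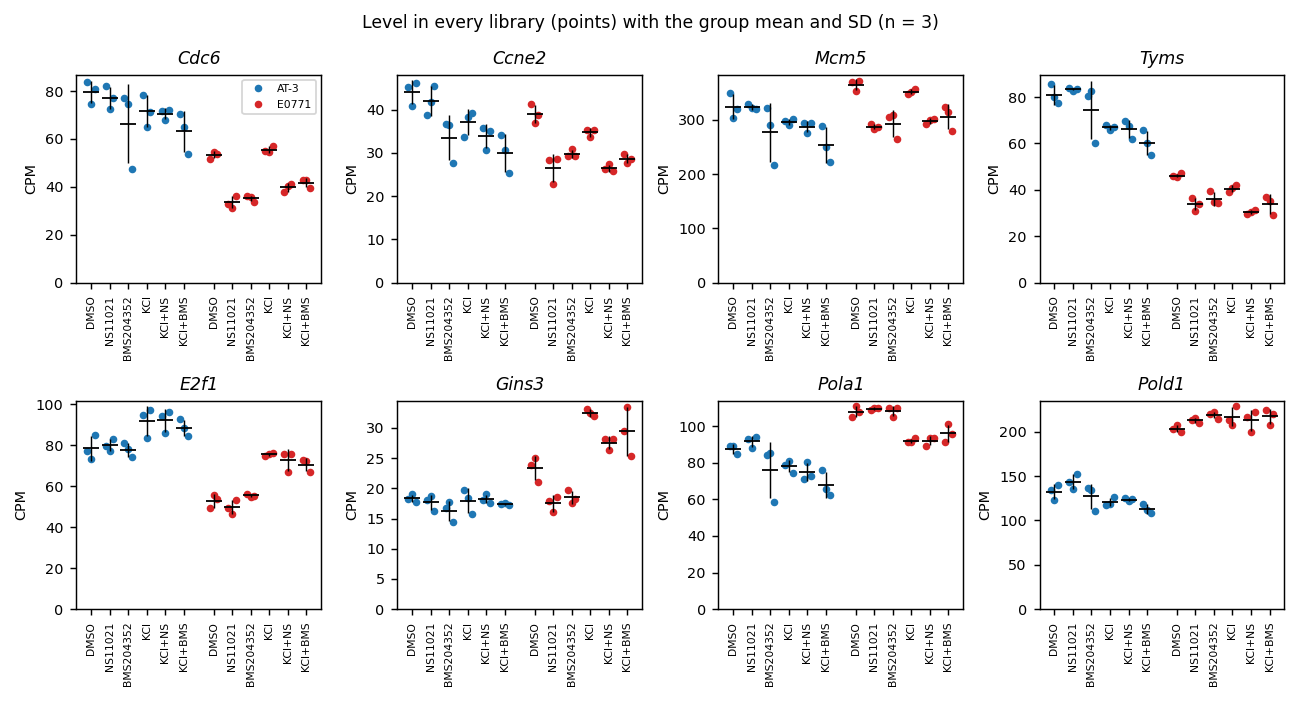
CPM of 8 genes in each library (points; AT-3 blue, E0771 red) with the group mean and SD of 3 libraries, by treatment, on axes that start at 0. In E0771, Cdc6, Ccne2, Mcm5 and Tyms are lower in each group with a compound than in its control, E2f1 and Gins3 are higher in KCl, and Pola1 and Pold1 show no decrease with the compounds.

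Some measures of the libraries moved with these decreases. The summed level of 4 leukocyte markers was 4.83 to 5.32 CPM in E0771 DMSO, 14.2 to 15.5 in NS11021 and 11.4 to 12.0 in BMS204352, nearly all of it Cd68, a lysosomal gene. Ptprc, Cd3e and Itgam, the other markers of that list, reached at most 0.142 CPM in any E0771 library. In KCl the leukocyte sum was 2.6 to 3.7 CPM, against 6.91 to 7.99 in KCl+NS11021 and 4.83 to 5.66 in KCl+BMS204352. The summed fibroblast markers were 174 to 193 CPM in DMSO, 151 to 156 in NS11021 and 146 to 169 in BMS204352, without overlap with DMSO, and Pdgfra was called lower with NS11021 at −0.26 ± 0.05 (adjusted p = 0.000499). They were 140 to 146 CPM in KCl and 154 to 161 in KCl+BMS204352, where Pdgfra was called higher at 0.16 ± 0.05 (adjusted p = 0.0306). The mammary epithelium markers, nearly all of it Krt8, summed to 202 to 207 CPM in DMSO, 213 to 228 in NS11021 and 199 to 222 in BMS204352, and to 158 to 167 in KCl, 148 to 156 in KCl+NS11021 and 140 to 161 in KCl+BMS204352. The mitochondrial share of counts was 0.789 to 1.03% in KCl+BMS204352, against 0.678 to 0.739% in KCl. Their part in the decreases was not tested. Without the 4 libraries, 18 of the 36 genes were lower and 1, Pold1, higher with BMS204352 (median −0.137; Pold1 at 0.13, adjusted p = 0.0389), and 19 were lower with KCl+BMS204352 (median −0.153), against 20 lower in both with them. Of all 13622 genes in the fit without the 4 libraries, 1303 were lower and 1290 higher with BMS204352. With KCl+BMS204352, 1264 were lower and 1196 higher. The 36 genes together made up 0.471 to 0.482% of counts in DMSO, 0.418 to 0.429% in NS11021 and 0.390 to 0.435% in BMS204352, so both treated ranges lay below that of DMSO.

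The comparisons in the presence and absence of KCl share no library in the groups compared. They do share the spread estimated over the 18 libraries of the line, so a gene with a small spread is more readily called in both. The overlap over all genes was not counted, so the overlaps below are counts only and no test of a shared effect. For NS11021, 17 genes were called lower both against DMSO and, in KCl, against KCl, which is 85.0% of the first list and 77.3% of the second. E2f2, Gins3 and Rfc3 were in the first alone, and Chaf1b, Fen1, Mcm2, Orc1 and Prim1 in the second alone. For BMS204352, 16 genes were shared, 80.0% of either list. Whether KCl altered the effect of a compound was tested as an interaction. No gene of the 36 was called for NS11021, where 0.217% of all genes were, or for BMS204352, where 1.62% were; 1 and 3 genes had an unadjusted p under 0.05, and DESeq2 also called 0. The interaction of Cdc6 was 0.19 ± 0.09 (adjusted p = 0.485) with NS11021 and 0.18 ± 0.09 (adjusted p = 0.405) with BMS204352, and that of Cdc45 with BMS204352 was −0.26 ± 0.09 (adjusted p = 0.134), the smallest p of these. The approximate 95% interval of the Cdc6 interaction with NS11021 was 0.02 to 0.37, before any adjustment for the number of genes.

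KCl alone gave a mixed picture in E0771. Of the 36 genes, 11 were higher and 3 lower than in DMSO, against 17.8% and 18.6% of all genes, so the share that rose (30.6%) was above and the share that fell (8.33%) below those of all genes. Libraries did not overlap for 16 genes that were higher and 9 that were lower, 44.4% and 25.0% against 24.0% and 26.7% of all genes. E2f1 stood at 49.2, 55.7 and 53.7 CPM in DMSO and 74.9, 75.6 and 76.4 in KCl, clear of each other. It rose by 0.53 ± 0.06 (adjusted p = 3.11e-08), the smallest adjusted p of the 36. E2f1 stayed at 75.9, 66.7 and 75.6 CPM in KCl+NS11021 and 72.6, 72.1 and 67 in KCl+BMS204352. Gins3 stood at 23.8, 25 and 21.1 CPM in DMSO and 33.2, 32.5 and 31.9 in KCl, a rise of 0.49 ± 0.09 (adjusted p = 5.26e-05). Tk1 went from 111, 111 and 101 to 132, 136 and 136 CPM, a rise of 0.33 ± 0.07 (adjusted p = 0.000282). In all of these the KCl libraries lay above the DMSO libraries.

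The other genes that rose with KCl were E2f2, Mcm6, Cdc45, Pcna, Pole, Chaf1a, Mcm4 and Mcm7. E2f2 went from 54.5, 59.1 and 55.8 to 68.3, 69.3 and 68.3 CPM, a change of 0.29 ± 0.06 (adjusted p = 0.000545). Mcm6 went from 312, 304 and 307 to 350, 351 and 352 CPM, a change of 0.20 ± 0.04 (adjusted p = 0.000544). Cdc45 went from 41.5, 44.9 and 41 to 48.2, 52.7 and 51.4 CPM, a change of 0.27 ± 0.06 (adjusted p = 0.000953). None of these groups overlapped, and the remaining 5 rose by 0.15 to 0.19 on the log2 scale. The genes called lower in the fit of all libraries were Pola1, Mcm10 and Prim1. Pola1 stood at 105, 111 and 108 CPM in DMSO and 91.6, 91.2 and 93.3 in KCl, a change of −0.22 ± 0.05 (adjusted p = 0.000405). Mcm10 fell from 154, 152 and 160 to 136, 131 and 136 CPM, a change of −0.20 ± 0.06 (adjusted p = 0.00475). Prim1 fell from 68.6, 64.4 and 58.8 to 55.9, 55.1 and 54 CPM, a change of −0.21 ± 0.06 (adjusted p = 0.00898). Pola1 and E2f1, neither of them called with the compounds, were thus lowered and raised by KCl. With the 4 libraries left out, or with only the DMSO and KCl libraries fitted, 22 genes were called in place of 14, 16 higher and 6 lower. Of all genes, 5473 of 13622 and 5659 of 12527 were called in these fits, in place of 4860 of 13357. Without the 4 libraries, Rrm1, Rrm2 and Tyms were also called lower, at −0.12, −0.2 and −0.17. Of the 14 calls, that of Mcm7 was lost in all 6 fits that left out 1 library. That of Mcm4 was lost in 2 of 6 and that of Prim1 in 1 of 6.

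Markers of other cell types also moved with KCl in E0771. The summed fibroblast markers were 140 to 146 CPM in KCl, against 174 to 193 in DMSO, and Col1a1 was called lower. The mammary epithelium markers summed to 158 to 167 CPM, against 202 to 207 in DMSO, with Krt8 lower at −0.32 ± 0.05 (adjusted p = 3.58e-06) and Cdh1 lower as well. The leukocyte markers summed to 2.6 to 3.7 CPM, against 4.83 to 5.32, and the endothelium markers to 2.01 to 4.34 CPM, against 0.661 to 1.02, with Cd68 called lower and Pecam1 higher. Their part in the changes with KCl was not tested.

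In AT-3, few of these genes passed the test in any comparison. With BMS204352, 2 genes were lower, both of cyclin E, and none higher, against 2.0% and 3.28% of all 14772 genes. Ccne1 stood at 40.5, 39.4 and 40.7 CPM in DMSO and 35.9, 33.9 and 23.1 in BMS204352, a log2 fold change of −0.37 ± 0.10 (adjusted p = 0.0448). Ccne2 stood at 45.3, 40.9 and 46.1 and 36.6, 36.4 and 27.6 CPM, a change of −0.39 ± 0.11 (adjusted p = 0.0478). In both genes the groups did not overlap and replicate 3 was far below the other replicates. Without BMS204352 replicate 3, neither gene was called, and the median change of the 36 genes went from −0.171 to −0.065. Both calls were also lost when any 1 of the DMSO libraries was left out, while 8 genes were called without BMS204352 replicate 1. Of all genes, 1743 of 15152 were called without that replicate, in place of 779 of 14772. Relative to the mean of the DMSO libraries, the median gene stood at −0.037, −0.047 and −0.451 (log2) in the 3 BMS204352 libraries, and all 36 genes were below that mean in replicate 3. The leukocyte markers summed to 8.43, 8.63 and 22.4 CPM in these libraries, against 4.34 to 5.55 in DMSO, nearly all of it Cd68. The mammary epithelium markers summed to 3060, 3130 and 3610 CPM, against 2560 to 2800 in DMSO, with Epcam and Krt14 called higher at 0.29 and 0.33 on the log2 scale. The endothelium markers summed to 2.93, 2.66 and 4.28 CPM, against 1.67 to 1.92, with Pecam1 called higher at 1.02, and the fibroblast markers to 14.9, 16.9 and 16.2 CPM, against 17.4 to 20.6. In each of these lists the groups did not overlap, and their part in the shift was not tested.

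**Figure D4:**
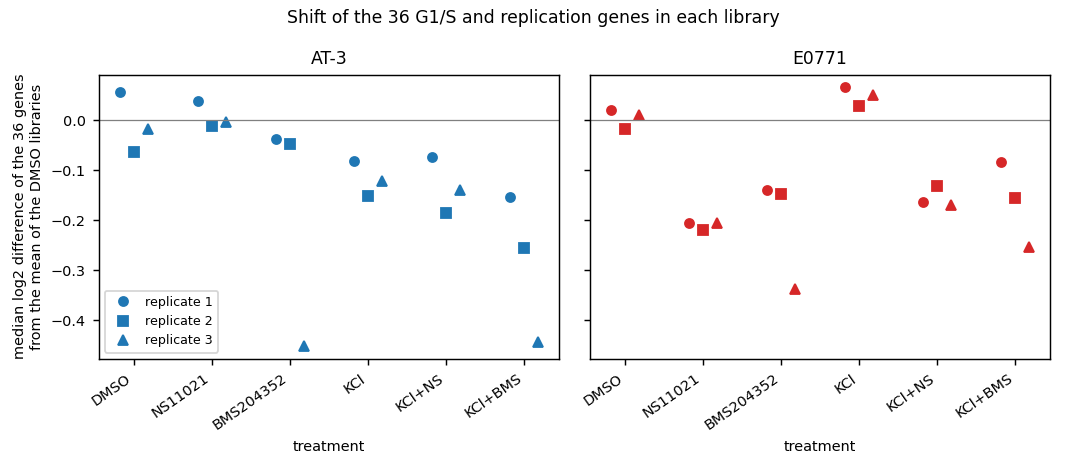
Median log2 difference of the 36 genes from the mean of the DMSO libraries of the same line, 1 point per library with the replicate number as its shape, by treatment. In E0771 the NS11021 libraries lie together between −0.22 and −0.205; in AT-3, replicate 3 of BMS204352 lies at −0.451, far from its other replicates.

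KCl+BMS204352 against KCl in AT-3 gave no call, where 1.24% of all genes were called; 12 genes had an unadjusted p under 0.05, all lower, and DESeq2 called 1. The median change was −0.201, and the libraries did not overlap, with the treated ones lower, for 18 of the 36 genes (against 9.04% of all genes). Mcm6 had the smallest p: it stood at 364, 335 and 348 CPM in KCl and 326, 287 and 253 in KCl+BMS204352, a change of −0.29 ± 0.09 (adjusted p = 0.109). Relative to DMSO, the 3 libraries had a median gene at −0.153, −0.256 and −0.444. The mitochondrial share of counts was 0.687 to 0.792% in them, against 0.491 to 0.580% in KCl, and its part was not tested. Without the 4 libraries the median was −0.155 and 1 gene, Rrm1, was called at −0.26 (adjusted p = 0.0155), where 273 of 15034 genes were called.

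NS11021 did not move these genes detectably in AT-3. Against DMSO, 0 of 36 were called, where 0.0745% of all genes were, with 1 gene at an unadjusted p under 0.05 and 0 called by DESeq2. The median change was 0.012 and the range −0.16 to 0.18, and the approximate 95% intervals of all 36 lay between −0.43 and 0.37. Libraries did not overlap for 3 genes that were higher (Mcm10, Cdt1 and Tk1; 8.33%, against 7.87% of all genes) and 1 that was lower (Ccne1; 2.78%, against 8.91%). Cdc6 stood at 83.6, 74.6 and 80.7 CPM in DMSO and 81.9, 72.7 and 77.2 in NS11021, a change of −0.03 ± 0.14 (adjusted p = 0.984) with overlapping groups. With KCl+NS11021 against KCl, 0 were called, where 0.0203% of all genes were, with 1 at an unadjusted p under 0.05 and 0 by DESeq2. Here libraries did not overlap for 1 gene that was higher, Rfc3 (2.78%, against 6.12%), and 4 that were lower, Mcm3, Ccne1, Cdc25a and Rrm1 (11.1%, against 5.34%). The interactions of KCl with the compounds in AT-3 also gave 0 calls by either tool, as over all genes (0.0%), with 0 of the 36 at an unadjusted p under 0.05. KCl against DMSO gave 0 calls, where 4.83% of all genes were called, with 1 gene higher and 5 lower at an unadjusted p under 0.05; DESeq2 called 1. The KCl libraries were below all DMSO libraries for 12 of the 36 genes (33.3%, against 12.5% of all genes). Among them was Tyms, at 85.8, 80 and 77.4 CPM in DMSO and 68, 66 and 67 in KCl, a change of −0.27 ± 0.09 (adjusted p = 0.0831). E2f1 stood at 77.1, 73.3 and 84.9 CPM in DMSO and 94.7, 83.7 and 97.2 in KCl, a change of 0.23 ± 0.07 (adjusted p = 0.0621) with overlapping groups and the smallest p of the 36. Without the 4 libraries, whose spread the fit shares, 5 genes were called with KCl: E2f1 higher at 0.23 (adjusted p = 0.0287), and Ccne1, Lig1, Rrm2 and Tyms lower at −0.31 to −0.27. Calls over all genes rose in that fit too, to 785 higher and 560 lower of 15034, from 455 and 259 of 14772.

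The difference between the lines was tested directly. For NS11021, 3 genes were called, each with a greater decrease in E0771, where 2.5% of all genes were called in that direction and 1.49% in the other. These were Cdc6, with a difference of −0.65 ± 0.15 (adjusted p = 0.0103), Tyms, with −0.51 ± 0.12 (adjusted p = 0.00981), and Ccne2, with −0.51 ± 0.14 (adjusted p = 0.0273). In AT-3, Tyms stood at 83.9, 82.8 and 83.4 CPM in NS11021 and Ccne2 at 38.7, 41.8 and 45.5, both overlapping DMSO. The difference was below 0 for 35 of the 36 genes, with a median of −0.211. The call of Ccne2 was lost in 7 of the 12 fits that left out 1 library. Those of Cdc6 and Tyms were lost without replicate 2 of E0771 NS11021. Without the 4 libraries 11 genes were called, all with a greater decrease in E0771, where 593 of all 16244 genes were called in that direction and 613 in the other. For KCl, 1 gene was called, where 4.11% of all genes were called in that direction and 5.02% in the other: Gins3, with a difference of 0.51 ± 0.13 (adjusted p = 0.00958), stood at 18.2, 19 and 17.8 CPM in AT-3 DMSO and 19.7, 18.4 and 15.7 in AT-3 KCl. E2f1, at 0.29 ± 0.09 (adjusted p = 0.0518), was not called. Without the 4 libraries 11 genes were, all in the direction of Gins3, where 1123 of all 16244 genes were called in that direction and 1025 in the other. For BMS204352, 0 genes were called, where 5.01% of all genes were; 4 had an unadjusted p under 0.05 and DESeq2 called 0. Without replicate 3 of AT-3 BMS204352, and likewise without the 4 libraries, 4 genes were called. In the latter fit all 4 had a greater decrease in E0771, among them Cdc6 at −0.50 (adjusted p = 0.00274). Of all 16244 genes in it, 330 were called in that direction and 240 in the other. Without replicate 3 of AT-3 BMS204352 alone, these were 339 and 297 of 16380. The lines can therefore not be called alike for this compound.

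**Figure D5:**
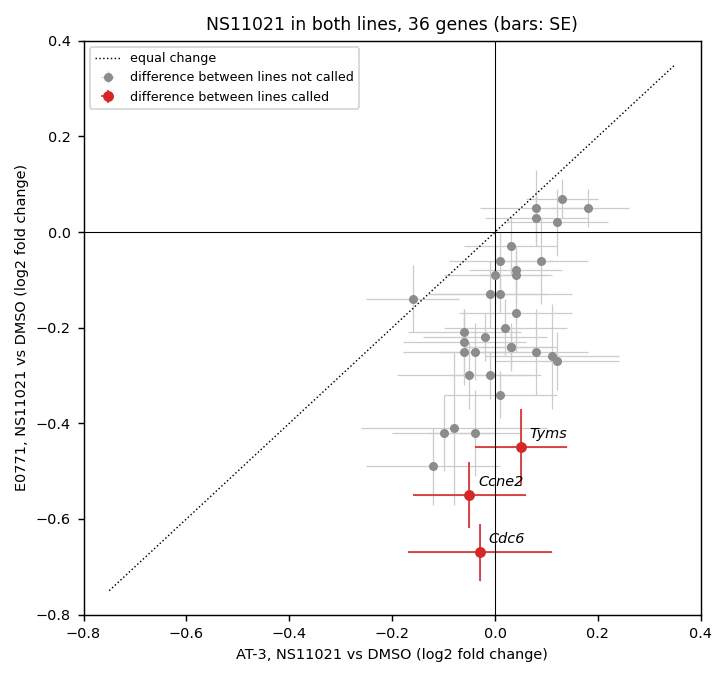
Log2 fold change of the 36 genes with NS11021 against DMSO in AT-3 (x axis) and E0771 (y axis), with bars for the SE and a dotted line for equal change. Tyms, Ccne2 and Cdc6 (red) differed between the lines, and nearly all genes lie below the dotted line.

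Other genes of the same processes were counted from 3 further lists. Of 52 other replication genes in E0771, 5 were higher and 22 lower with NS11021, 3 and 13 with BMS204352, 1 and 13 with KCl+NS11021, 2 and 13 with KCl+BMS204352, and 5 and 8 with KCl. Lower were thus 42.3% of the list with NS11021 and 25.0% with each of the other compound treatments, against 13.5% of all genes with NS11021, 11.3% with BMS204352, 7.66% with KCl+NS11021 and 10.1% with KCl+BMS204352, with list medians of −0.099 for NS11021 and −0.103 for BMS204352. With KCl, 9.62% were higher and 15.4% lower, against 17.8% and 18.6% of all genes. Uhrf1, which links replication to DNA methylation, was lower with NS11021 at −0.38 ± 0.05 (adjusted p = 3.9e-06) and with BMS204352 at −0.33 ± 0.05 (adjusted p = 3.87e-05). Pold4, the smallest subunit of polymerase delta, went the other way, at 20.2 ± 0.209 against 11.9 ± 1.41 CPM (SD, n = 3) with NS11021 against DMSO, a rise of 0.75 ± 0.10 (adjusted p = 1.05e-06). Orc2, a subunit of the origin recognition complex, was lowered by KCl, at −0.52 ± 0.06 (adjusted p = 8.49e-08). Of 33 G2/M genes, 2 were higher and 7 lower with NS11021, 0 and 11 with BMS204352, 0 and 15 with KCl+NS11021, 1 and 13 with KCl+BMS204352, and 5 and 2 with KCl. The share lower was 21.2% with NS11021, 33.3% with BMS204352, 45.5% with KCl+NS11021 and 39.4% with KCl+BMS204352, beside the same shares of all genes. With KCl, 15.2% were higher and 6.06% lower. Foxm1, a driver of G2/M genes, was lower with NS11021 at −0.19 ± 0.04 (adjusted p = 0.000676) and higher with KCl by 0.19 ± 0.04 (adjusted p = 0.000271).

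Of 34 further G1/S regulators, 32 were tested in E0771. With NS11021, 2 were higher and 11 lower, with BMS204352 2 and 12, with KCl+NS11021 1 and 12, with KCl+BMS204352 1 and 9, and with KCl 8 and 8. The share lower was 34.4, 37.5, 37.5 and 28.1% in these 4 compound treatments, against 13.5, 11.3, 7.66 and 10.1% of all genes, and with KCl 25.0% were higher and 25.0% lower, against 17.8 and 18.6%. E2f7, an E2F that represses its targets and is itself one, was lower with NS11021 at −0.54 ± 0.08 (adjusted p = 4.59e-06) and with BMS204352 at −0.64 ± 0.08 (adjusted p = 7.67e-07). Mybl2, a cell cycle activator, was lower at −0.33 ± 0.05 (adjusted p = 4.78e-06) and −0.28 ± 0.05 (adjusted p = 8.55e-05). Myc, a growth regulator that promotes entry into S phase, moved the opposite way: it stood at 754 ± 35.7 against 558 ± 5.5 CPM (SD, n = 3) with NS11021 against DMSO, a rise of 0.43 ± 0.07 (adjusted p = 0.000145), and rose by 0.37 ± 0.07 (adjusted p = 0.000823) with BMS204352. With KCl it was lower at −0.54 ± 0.07 (adjusted p = 6.26e-06), while Cdkn1b, an inhibitor of cyclin E with its kinase, rose by 0.46 ± 0.05 (adjusted p = 8.95e-09) and Tfdp2, a partner that E2F proteins need to bind DNA, by 1.47 ± 0.07 (adjusted p = 7.16e-17). Ccnd1, cyclin D1, was lower with KCl at −0.27 ± 0.05 (adjusted p = 3.55e-05) and with BMS204352 at −0.24 ± 0.05 (adjusted p = 0.00044), while its change with NS11021 was −0.01 ± 0.05 (adjusted p = 0.86). Rb1, which restrains E2F, was higher with NS11021 by 0.61 ± 0.13 (adjusted p = 0.000914), and the p53 target and kinase inhibitor Cdkn1a with BMS204352 by 0.54 ± 0.13 (adjusted p = 0.00954). Cdkn1a varied widely there, at 91.8 ± 18.8 CPM against 63.7 ± 2.48 in DMSO (SD, n = 3). Neither gene was called in the other E0771 comparisons with a compound. Rb1 changed by 0.34 with BMS204352, 0.18 with KCl+NS11021 and 0.2 with KCl+BMS204352. Cdkn1a changed by 0.26 with NS11021, 0.07 with KCl+NS11021 and 0.06 with KCl+BMS204352. In AT-3, Ccnd1 was lower with KCl at −0.28 ± 0.07 (adjusted p = 0.0276), and Cdkn1c, a kinase inhibitor, was higher by 0.89 ± 0.20 (adjusted p = 0.00924). With BMS204352 in AT-3, Cdkn2c and E2f8 were lower at −0.35 ± 0.10 (adjusted p = 0.0472) and −0.40 ± 0.11 (adjusted p = 0.0498), and Cdkn1a, at 130 ± 67.2 CPM (SD, n = 3), was not called. The SD of Cdkn2c was 18.5 CPM with BMS204352 against 4.15 in DMSO, and that of E2f8 12.2 against 4.79. Both adjusted p-values lay near the threshold, and whether other fits keep these calls was not examined. At baseline E0771 had more Myc (1.96 ± 0.09) and E2f4 (1.66 ± 0.05) and less Ccnd1 (−1.52 ± 0.06) and Rb1 (−2.37 ± 0.12) than AT-3, on the log2 scale. Cdkn1b was also lower in E0771, at −0.32 ± 0.06 (adjusted p = 8.8e-06). Cdkn2a, of the same list, had a mean of 0 CPM in E0771 DMSO, against 27.7 ± 0.464 in AT-3 DMSO (SD, n = 3).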

How the data were processed

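The deposited values are the authors' whole-number read counts for each gene. STAR alignment to GRCm38 and counting with featureCounts come from the submitters' processing notes; their versions, the annotation release and the strand setting were not found there. The labels' protocols name Qiagen RNeasy for the RNA and NuGen Universal Plus mRNA for the libraries. Of 32287 gene IDs, 2 of human form were left out. Symbols, positions and exon lengths came from GENCODE vM21 (GRCm38). Among counts from 1 to 10, 84.5% were even, as when the mates of a pair are counted apart, so halved counts were an alternative.

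From these counts, CPM, CPM per kb (of the union of exons) and log2 fold changes were calculated, in R 4.3.3 with edgeR 4.0.16: filterByExpr (minimum count 10, minimum total 15), TMM, and the quasi-likelihood test with robust dispersions over the 18 libraries of each line, or over all 36 for baseline and line differences. P-values were adjusted by Benjamini-Hochberg over all tested genes of each comparison and called below 0.05. Values after ± are SE of log2 fold changes, or SD where stated; approximate 95% intervals are normal intervals from the SE. All tests were two-sided. The scripts were tested on simulated counts.

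All 36 genes could be named; in each of the 18 comparisons, up to 6 called genes with the smallest adjusted p in each direction were given with the values of every library. From each further list, up to 3 called genes with the smallest adjusted p could be named, and Ccnd1, Cdkn1a, Cdkn1b, Myc and Rb1 as index genes. The 36 genes and all lists were chosen with earlier results of these data known. The alternatives were DESeq2 1.42.0, DESeq2 size factors, no filter, only the libraries compared, 1 CPM in 3 libraries, a block for the replicate number, halved counts, 4 libraries left out, and each library left out in turn. Of the cell type marker lists, 1 further listed gene is not reported here.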

Additional observations from a re-analysis of the deposited data

Results flagged for a closer look

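Of the 36 genes, 4 differed between the lines in their response by edgeR's test of the difference itself (E0771 minus AT-3, log2, adjusted over 15969 genes). The effect of KCl on Gins3 differed by 0.51 (adjusted p = 0.00958). The effect of NS11021 differed by −0.65 for Cdc6 (adjusted p = 0.0103), by −0.51 for Tyms (adjusted p = 0.00981) and by −0.51 for Ccne2 (adjusted p = 0.0273). With 3 libraries a group, single libraries were not tested as outliers.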

How the results depend on the processing

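All values here are numbers of the 36 genes called. No called gene reversed its direction under any alternative; of the single-gene results recomputed, 1659 kept their call and 143 lost it. In AT-3, KCl against DMSO gave 0 in the reported fit, 1 with DESeq2, 1 with the 1 CPM filter, 5 without the 4 libraries and 4 with only the libraries compared. BMS204352 against DMSO in AT-3 gave 2, and 0 both without the 4 libraries and with only the libraries compared. KCl+BMS204352 against KCl in AT-3 gave 0, and 1 with DESeq2, without the 4 libraries and with only the libraries compared. KCl in E0771 gave 14, and 22 both without the 4 libraries and with only the libraries compared. The line difference for KCl gave 1, against 5 with DESeq2, 2 with its size factors, 2 with no filter, 5 with the 1 CPM filter, 3 with halved counts and 11 without the 4 libraries or with only the libraries compared. That for NS11021 gave 3, and 11 in both of these; that for BMS204352 gave 0, and 4 without the 4 libraries. Calls over all genes moved as well. Without the 4 libraries they went from 714 to 1345 for KCl in AT-3 and from 4860 to 5473 in E0771. For the line differences they went from 1458 to 2148 with KCl, from 637 to 1206 with NS11021 and from 800 to 570 with BMS204352. The cause was not tested.

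Leaving out 1 library at a time gave 0 to 1 for KCl, 0 to 8 for BMS204352 and 0 to 1 for KCl+BMS204352 in AT-3. In E0771 it gave 12 to 14 for KCl, 16 to 19 for NS11021, 16 to 22 for BMS204352, 14 to 17 for KCl+NS11021 and 12 to 22 for KCl+BMS204352. It gave 22 to 25 at baseline, and 1 to 3, 0 to 3 and 0 to 4 for the line differences with KCl, NS11021 and BMS204352. The 14 of KCl+NS11021 came without E0771 KCl replicate 2, the 12 of KCl+BMS204352 without its replicate 3, the 0 of the NS11021 line difference without E0771 NS11021 replicate 2, and the 4 of the BMS204352 line difference without AT-3 BMS204352 replicate 3.

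Same-numbered libraries were weakly alike in AT-3, by the correlation of their deviations from the group means. Only BMS204352 and KCl+BMS204352 in AT-3 correlated above 0.1 in every number, where the lowest was 0.115. Most other AT-3 pairs of groups had smaller positive correlations in every number, such as 0.0196, 0.0755 and 0.0925 for KCl and KCl+NS11021. Most E0771 pairs had mixed signs. With the replicate number as a block, 2 genes were called for KCl, 4 for BMS204352 and 3 for KCl+BMS204352 in AT-3, and 3 for the line difference with KCl, while the other counts stayed within 1.5 times. Over all genes, the block raised the calls in AT-3 from 714 to 1124 for KCl, from 779 to 1455 for BMS204352 and from 183 to 620 for KCl+BMS204352.

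Depth limits these results little: the lowest of the 36 genes, Fen1, had 4.07 CPM in its lowest library. The spread in the AT-3 fit limits them more, since the median SE there was 0.10. That fit includes the wider BMS204352 and KCl+BMS204352 groups.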
